A study of Mus musculus with 6 samples.

Results

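Glutathione and peroxide defence was followed through 10 genes of the 55421 gene rows counted in femur RNA of mice, namely Mgst1, Mgst2, Mgst3, Gpx1, Gpx4, Gclc, Gclm, Gsr, Prdx2 and Cat. The genes were taken by name, and the set was chosen from genes whose values after phlebotomy and in controls were already known, so their differences between groups are given here as a description with no test. The libraries came from femur bone of C57BL/6 mice aged 12 weeks with the genotype WT: 3 after phlebotomy (removal of blood) and 3 from controls. The bone had been fractionated to enrich osteocytes, which sit within the mineralised matrix, before total RNA was taken. How much blood was removed, and how long before sampling, the sources used here do not give.

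Glutathione is a small thiol peptide that donates electrons to remove peroxides. It is built in the cytosol, used by glutathione peroxidases and transferases, and restored from its oxidised form with NADPH. Catalase and the peroxiredoxin encoded by Prdx2 remove hydrogen peroxide without glutathione, and red cells, which carry oxygen-bound iron in hemoglobin, are rich in both. The transcription factor NRF2, encoded by Nfe2l2, is a known activator of many of these genes through the antioxidant response element.

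Libraries held 14853290 to 15866385 gene counts after phlebotomy and 11219243 to 19015588 in controls. Columns were assigned to groups by the initial of their name, P as phlebotomy and N as control by elimination, and libraries carry the column numbers 1, 2 and 4. The labels do not say that libraries came from separate animals, so errors measure the spread between these libraries. Phlebotomy 2, labelled WT like the others, held 2288 counts of Neo, a resistance gene of vectors, against at most 12 in any other library, and results are also given without it. Levels are CPM, counts scaled to library size and by TMM, a factor for composition. Dmp1, an osteocyte matrix gene, was at 11445 to 22234 CPM after phlebotomy and at 18771 to 43051 CPM in controls. Blood cell markers were abundant beside it: the 9 erythroid markers found summed to 15202 to 23038 CPM after phlebotomy and 10595 to 22916 CPM in controls, and the 10 neutrophil markers to 26135 to 41563 CPM after phlebotomy and 19051 to 45762 CPM in controls. In such bulk RNA, fewer cells of a type and less RNA per cell cannot be told apart.

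The start regions of the genes are shown because NRF2-type motifs can be read in them. RefSeq windows on GRCm38.p6, from 250 bases before to 50 after a gene start, were held for 8 of the 10 genes (12 windows); Gclc and Gsr had no window here. The antioxidant response element was searched as TGACNNNGC and the core bound by AP-1 and NF-E2 factors as TGANTCA, on both strands. The first was found in Gclm and Mgst1 and the second in Mgst2 alone of the 8 genes. Over all 27025 genes with a window, 3781 held the first motif and 2425 the second, and of their 32851 windows 12.4% and 7.81% did. The stretches around the Gclm and Mgst2 matches follow, 5′ to 3′ on the plus strand, with the match in capitals.

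Gclm: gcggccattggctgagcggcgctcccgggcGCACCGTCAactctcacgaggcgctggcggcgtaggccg

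Mgst2: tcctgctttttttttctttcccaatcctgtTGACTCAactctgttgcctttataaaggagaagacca

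The Gclm stretch (chr3:122245393-122245461) lies in no annotated gene, and its match, on the minus strand, begins 134 bases before the gene start. The Mgst2 stretch (chr3:51661097-51661163) lies within Mgst2 outside its annotated exons, with the match on the plus strand 52 bases before the RefSeq start. In Mgst1 the letters GCACGGTCA lie 56 bases before a RefSeq start on chromosome 6. The stretch of 69 bases around them overlaps an Mgst1 exon in GENCODE M21, and whether the matched letters do was not examined. A match is a run of letters and not a measured binding site.

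All 10 genes passed the filter on low counts, with at least 157 counts in every library. The log2 fold change of phlebotomy over control was positive for 6 genes and negative for 4, with a median of 0.086 against -0.0028 over all 18838 genes tested. All 3 phlebotomy libraries lay above all 3 controls for 2 genes, Mgst3 and Prdx2, and below all controls for 2, Gclm and Gsr. Over all genes tested, 10.1% lay above and 11.2% below in this way. In the quasi-likelihood test of edgeR, called at an adjusted p under 0.05, 0 of the 10 were called, where 0.0159% of all genes were called higher and 0% lower. DESeq2 called 1, Mgst3, higher, where it called 0.414% of all genes higher and 1.09% lower. Since the genes were chosen with these values known, no weight rests on these counts.

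**Figure D1:**
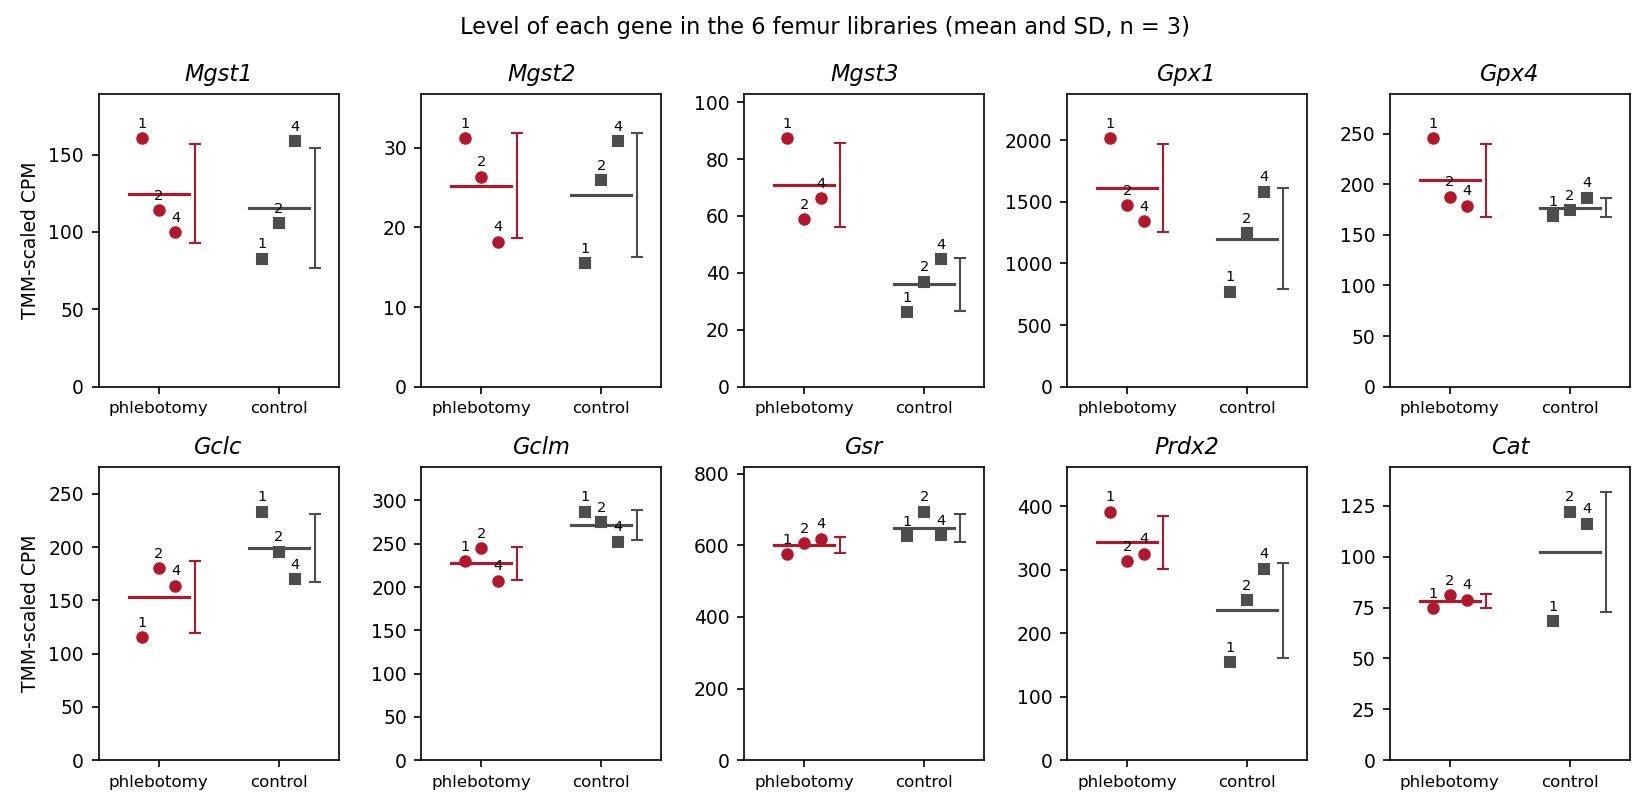
TMM-scaled CPM (y axis, from 0) of each of the 10 genes in phlebotomy libraries (red circles) and control libraries (grey squares), with column numbers, group means (lines) and SD (bars, n = 3). Phlebotomy libraries sit above all controls for Mgst3 and Prdx2 and below all controls for Gclm and Gsr, and control 1 is the lowest library for 7 genes.

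The microsomal glutathione transferases Mgst1, Mgst2 and Mgst3 encode small membrane proteins of the MAPEG family, several of which join glutathione to lipids or reduce lipid peroxides with it. Mgst3 (ENSMUSG00000026688, chr1:167371966-167393841 on GRCm38, minus strand) had 87.3, 58.8 and 66.3 CPM in phlebotomy 1, 2 and 4, against 26.2, 36.9 and 44.8 CPM in control 1, 2 and 4. Every phlebotomy library was above every control library. The group means were 70.8 ± 14.8 CPM after phlebotomy and 36.0 ± 9.30 CPM in controls (SD, n = 3 each), a ratio of 1.97. The log2 fold change was 0.97 ± 0.21 (SE), and it ran from 0.78 without control 1 to 1.13 without control 4.

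Mgst1 (chr6:138140316-138156755, plus strand) had 160.6, 114 and 99.7 CPM in phlebotomy 1, 2 and 4 and 82.8, 106 and 159 CPM in control 1, 2 and 4. The groups overlapped over nearly their whole range. Its log2 fold change was 0.11 ± 0.23 (SE), and it was -0.098 without control 1 and -0.096 without phlebotomy 1. Mgst2 (chr3:51660360-51682677, plus strand), whose product can also make leukotriene C4, had 31.2, 26.4 and 18.2 CPM after phlebotomy and 15.5, 25.9 and 30.8 CPM in controls. It overlapped in the same manner, with a log2 fold change of 0.064 ± 0.26 (SE) that turned negative without control 1, phlebotomy 1 or phlebotomy 2 (-0.18, -0.098 and -0.0066). Mgst3 thus stood apart from both relatives in the order of libraries: control 4, the highest control for all 3 genes, was above phlebotomy 2 and 4 for Mgst1 and Mgst2 but below every phlebotomy library for Mgst3.

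The glutathione peroxidases of the set are selenoproteins. Gpx1 (chr9:108338903-108340343, plus strand), the main cytosolic form that reduces hydrogen peroxide, was the most abundant of the 10 genes. It had 2016, 1473 and 1345 CPM in phlebotomy 1, 2 and 4, against 771, 1247 and 1583 CPM in control 1, 2 and 4. Control 4 lay above phlebotomy 2 and 4, so the groups overlapped, and control 1 was lowest by a wide margin. The means were 1611 ± 356 CPM after phlebotomy and 1200 ± 408 CPM in controls (SD, n = 3 each), with a log2 fold change of 0.42 ± 0.26 (SE), which was 0.17 without control 1 and 0.25 without phlebotomy 1.

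Gpx4 (chr10:80047166-80056439, plus strand) reduces lipid hydroperoxides within membranes and protects cells from ferroptosis, a form of iron-dependent death. It had 246, 188 and 179 CPM after phlebotomy and 168, 175 and 187 CPM in controls, so that phlebotomy 1 stood clear of the control range and the other libraries lay close together. Its log2 fold change was 0.21 ± 0.17 (SE), and 0.076 without phlebotomy 1. Reads of Gpx4 may be shared with a pseudogene found by its name, but the sequences were not compared. This pseudogene, Gpx4-ps2, was listed with 77.9 to 109 CPM after phlebotomy and 75.1 to 85.3 CPM in controls. That was 43.0% to 49.4% of the Gpx4 counts in a library. With the counts of both named Gpx4 pseudogenes added, the log2 fold change of Gpx4 was 0.20 ± 0.17 (SE).

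The genes of glutathione synthesis and recycling all had lower means after phlebotomy. Gclc (chr9:77754535-77794485, plus strand) encodes the catalytic subunit of glutamate-cysteine ligase, the rate-limiting enzyme of glutathione synthesis. It had 116, 180.1 and 164 CPM in phlebotomy 1, 2 and 4, against 233, 196 and 169.8 CPM in control 1, 2 and 4. Phlebotomy 2 lay above control 4, and the other 2 phlebotomy libraries lay below all controls. The log2 fold change was -0.38 ± 0.20 (SE), -0.19 without phlebotomy 1 and -0.55 without phlebotomy 2.

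Gclm (chr3:122245557-122270732, plus strand), the modifier subunit of the same ligase, had 230.0, 245 and 207 CPM after phlebotomy and 287, 275 and 252 CPM in controls. The groups did not overlap, and the nearest libraries were phlebotomy 2 and control 4. The means were 227 ± 19.0 CPM after phlebotomy and 271 ± 17.5 CPM in controls (SD, n = 3 each), and the log2 fold change was -0.25 ± 0.16 (SE). Gsr (chr8:33652523-33698163, plus strand), glutathione reductase, which restores glutathione with NADPH, had 575, 606 and 619 CPM after phlebotomy and 625, 694 and 628 CPM in controls. All phlebotomy values were below all controls, but phlebotomy 4 and control 1 were almost equal, and the log2 fold change was -0.11 ± 0.17 (SE). Gsr was the steadiest of the 10 genes between libraries. Gclm shares 296 of its 6291 exon bases with Gm17494, an antisense transcript at 5.62 to 13.7 CPM. Gclc over Gclm, per kb of exon, was 0.840, 1.23 and 1.32 in phlebotomy 1, 2 and 4 and 1.36, 1.19 and 1.12 in control 1, 2 and 4, so the balance of the subunits overlapped between groups.

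The enzymes that remove peroxide without glutathione had fold changes of opposite sign. Prdx2 (chr8:84969587-84974834, plus strand), a thiol peroxidase that is among the most abundant proteins of red cells, had 391, 314 and 326 CPM in phlebotomy 1, 2 and 4, against 155, 252 and 302 CPM in control 1, 2 and 4. All phlebotomy libraries were above all controls, with control 4 close below phlebotomy 2. The means were 344 ± 41.9 CPM after phlebotomy and 236 ± 74.8 CPM in controls (SD, n = 3 each). The log2 fold change was 0.54 ± 0.22 (SE), and 0.30 without control 1. The strand of the reads was not kept, and Prdx2 shares 173 of its 3050 annotated exon bases with Junb and 177 with Rnaseh2a on the opposite strand. Junb, an immediate early transcription factor, was at 672 to 985 CPM after phlebotomy and 1074 to 1126 CPM in controls, a difference opposite to that of Prdx2. Rnaseh2a was at 18.3 to 22.6 CPM after phlebotomy and 11.8 to 18.5 CPM in controls, well under Prdx2. The log2 fold change of Rnaseh2a was 0.51, of the same sign as that of Prdx2. The part of shared reads was not tested. A processed copy, Prdx2-ps1, held 7.41% to 8.60% of the Prdx2 counts in a library, and with both named Prdx2 pseudogenes added the log2 fold change of Prdx2 stayed at 0.54.

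Cat (chr2:103453849-103485160, minus strand), catalase of peroxisomes, had 74.7, 81.2 and 78.8 CPM after phlebotomy and 68.3, 122 and 116 CPM in controls. Control 1 was below every phlebotomy library and the other controls were above every one, so the groups overlapped through control 1 alone. The log2 fold change was -0.39 ± 0.20 (SE), and -0.62 without control 1.

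**Figure D2:**
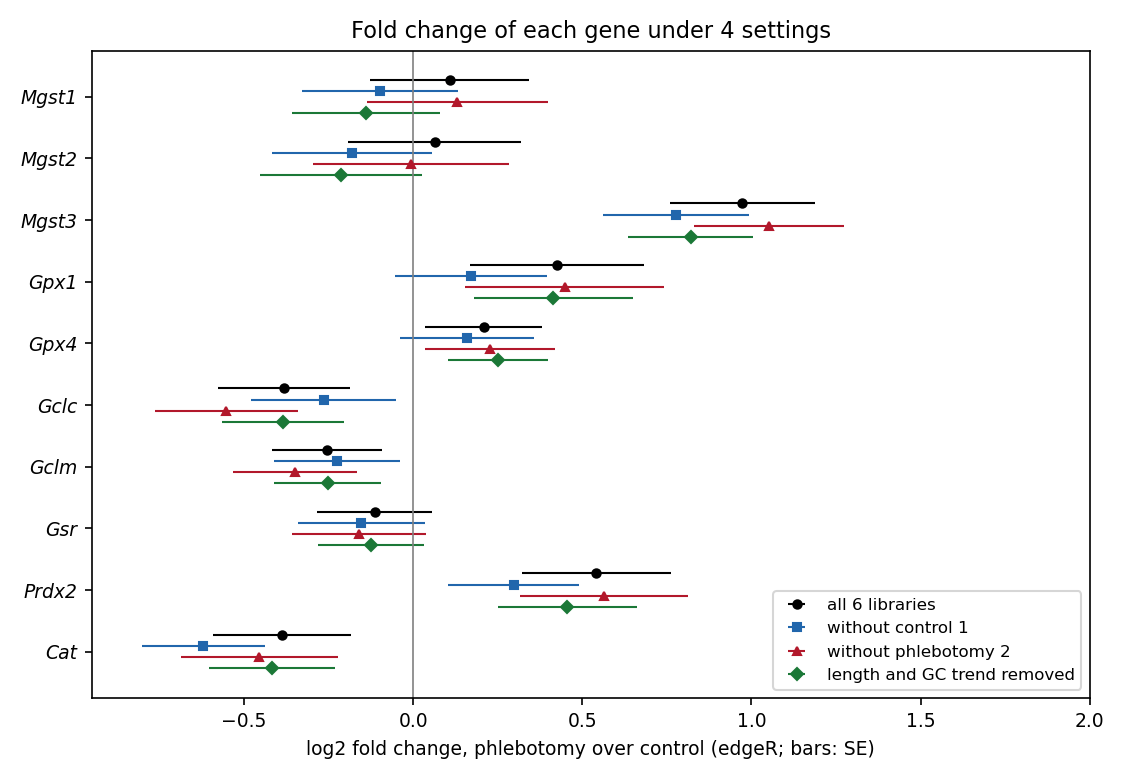
edgeR log2 fold change of phlebotomy over control (x axis, bars SE) for each of the 10 genes with all 6 libraries, without control 1, without phlebotomy 2, and with a trend over transcript length and GC content removed. Mgst3, Gpx1, Gpx4 and Prdx2 stay positive and Gclc, Gclm, Gsr and Cat negative in all 4, while Mgst1 and Mgst2 change sign.

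Without phlebotomy 2, the library with vector counts, the log2 fold changes were 1.05 for Mgst3, 0.56 for Prdx2, 0.45 for Gpx1, 0.23 for Gpx4 and 0.13 for Mgst1. On the negative side they were -0.55 for Gclc, -0.45 for Cat, -0.35 for Gclm, -0.16 for Gsr and -0.0066 for Mgst2. Mgst2 was the one gene of the 10 whose sign changed when that library was left out.

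Set per kb of annotated exon, so that genes can be compared, the control means ran from 833 ± 283 CPM per kb for Gpx1 and 236 ± 14.1 for Gsr to 32.8 ± 8.48 for Mgst3 and 6.50 ± 2.12 for Mgst2 (SD, n = 3). Gpx1, Gsr and the next gene, Gpx4 (102.5 ± 5.44), did not overlap each other in their ranges over controls. From Gpx4 down through Prdx2, Mgst1, Gclc, Gclm, Cat and Mgst3 each gene overlapped its neighbour, and Mgst2 lay below them all. After phlebotomy Mgst3 was at 64.5 ± 13.5 CPM per kb, the fifth of the 10 by its mean, where it was ninth in controls. The place of Mgst2 rests on the length used: with its longest coding transcript of 603 bases in place of 3703 annotated exon bases, it was eighth in controls, at 39.9 ± 13.0 CPM per kb. Gpx1 over Gpx4 per kb was 9.82, 9.40 and 8.99 in phlebotomy 1, 2 and 4, against 5.47, 8.54 and 10.1 in control 1, 2 and 4, with control 1 apart from the rest.

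**Figure D3:**
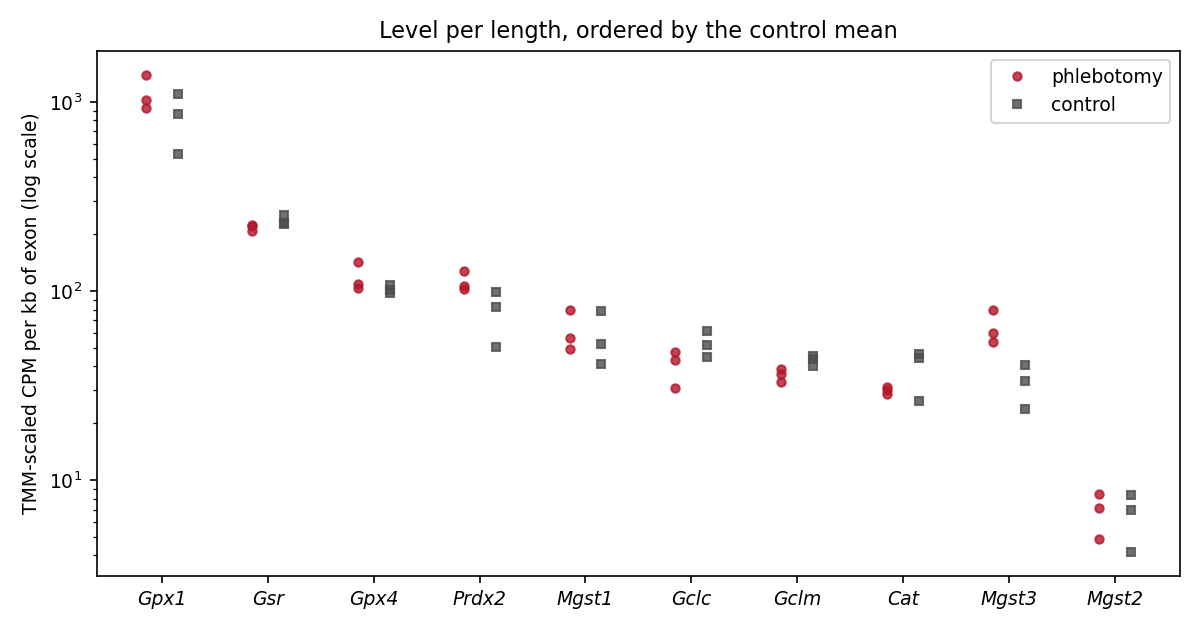
TMM-scaled CPM per kb of annotated exon (y axis, log scale) of the 10 genes, ordered by the control mean, with each phlebotomy library as a red circle and each control library as a grey square. Gpx1 is highest and Mgst2 lowest in both groups, and Mgst3 is the gene whose phlebotomy libraries sit farthest above its controls.

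The same libraries were often the extremes. Control 1 was the lowest of the 6 libraries for 7 genes (Mgst1, Mgst2, Mgst3, Gpx1, Gpx4, Prdx2 and Cat) and the highest for Gclc and Gclm. Phlebotomy 1 was the highest for 6 genes, those 7 without Cat, and the lowest for Gclc and Gsr. Marker levels also differed between libraries. On the log2 scale centred on the 6 libraries, the erythroid markers lay at 0.23, 0.12 and 0.13 in phlebotomy 1, 2 and 4 and at -0.87, 0.073 and 0.32 in control 1, 2 and 4. Neutrophil markers lay at 0.22, 0.18 and -0.058 after phlebotomy and at -0.76, -0.011 and 0.43 in controls. Osteocyte markers lay at -0.60, -0.16 and -0.17 after phlebotomy and at 0.53, 0.29 and 0.11 in controls. Control 1 was thus lowest in erythroid and neutrophil markers and highest in osteocyte markers, and phlebotomy 1 was lowest in osteocyte markers. Control 4, and not phlebotomy 1, was highest in erythroid and neutrophil markers, though it was the highest library for 0 of the 10 genes. The part of cell content in the differences of the 10 genes was not tested.

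Of the marker lists, 6 of the 9 erythroid markers tested had a positive log2 fold change (median 0.11), as had 7 of 10 neutrophil (median 0.20) and 7 of 10 monocyte and macrophage markers (median 0.13), while 8 of 9 osteocyte and 8 of 8 osteoblast markers were negative (medians -0.66 and -0.55). The monocyte and macrophage markers summed to 3837 to 4913 CPM after phlebotomy and 3151 to 5477 CPM in controls. The osteocyte markers summed to 13923 to 25139 CPM after phlebotomy and 22903 to 49064 CPM in controls, and the osteoblast markers to 13187 to 40931 CPM after phlebotomy and 40202 to 59665 CPM in controls. None of the markers found in these lists was at 0 in all libraries. Among 6560 named protein-coding genes outside the lists with a mean of at least 20 CPM, the 5 most like the mean of the 10 genes over the 6 libraries were Hbb-bt, an adult beta-globin, with a Pearson r of 0.995, Trem3 (0.988), Pilra (0.985), Sash3 (0.981) and Il16 (0.979). That mean does not describe each of the 10 genes: across the 6 libraries Gclc ran against Gpx1 (r = -0.90) and Mgst3 (r = -0.915), and Gclm against Mgst3 (r = -0.87). These are descriptions over 6 libraries that differ in group, depth and marker levels. Hbb-bt itself was at 5111, 3583 and 3250 CPM after phlebotomy and 1850, 3618 and 4544 CPM in controls.

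**Figure D4:**
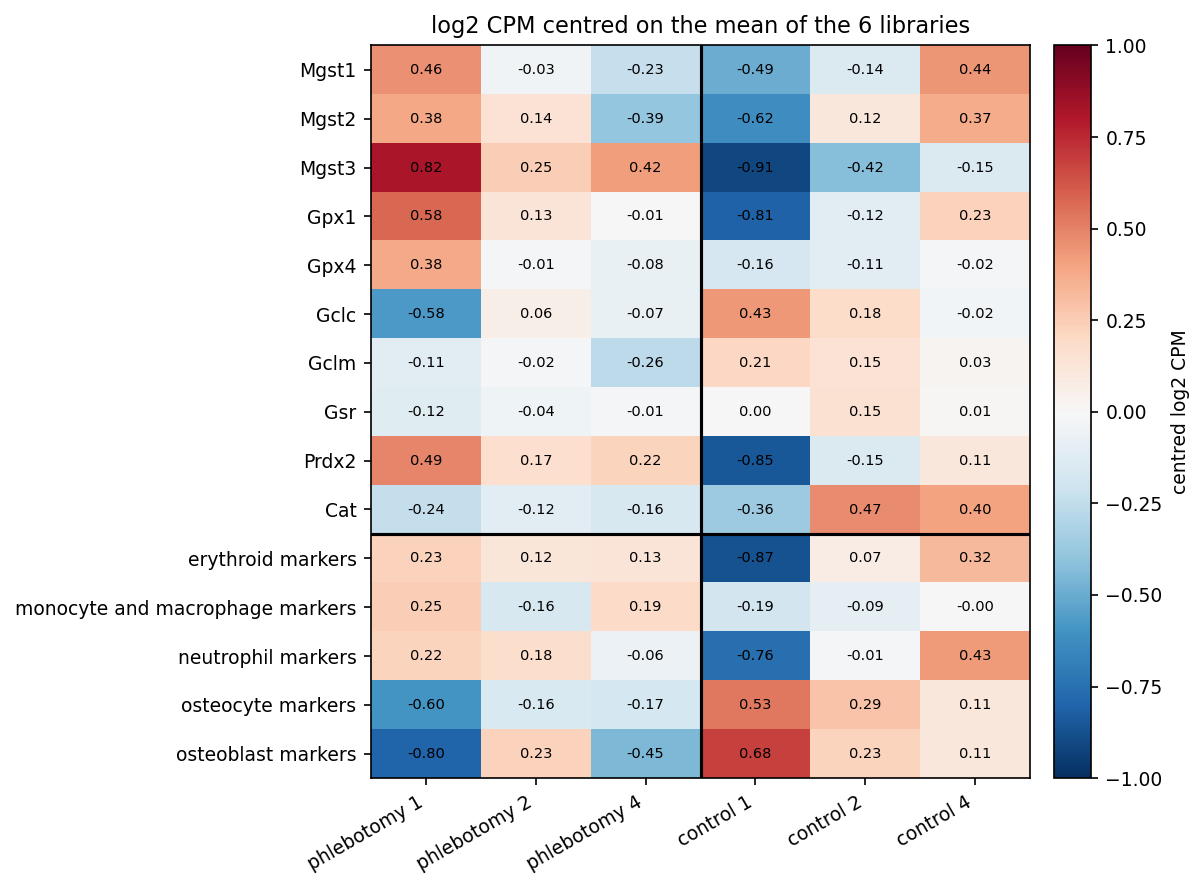
log2 CPM of the 10 genes (upper rows) and the mean of 5 marker lists (lower rows), each centred on its mean over the 6 libraries (colour and printed value), with phlebotomy libraries left of the line and control libraries right of it. Control 1 is low for Mgst1 to Gpx1, for Prdx2 and for erythroid and neutrophil markers, and high for Gclc and osteocyte markers.

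Transcript length also ran with direction. The 6 genes with a positive log2 fold change had longest coding transcripts of 603 to 1612 bases and the 4 negative ones 2613 to 5589 bases. Of the 4326 genes tested with 500 to 1700 bases, 65.9% were positive (median log2 fold change 0.15). Of the 8040 with 2500 to 6000 bases, 40.9% were positive (median -0.088). With the trend over length and GC content removed in each library, 8 of the 10 genes kept their sign. Mgst3 was then at 0.82 ± 0.18, Prdx2 at 0.46 ± 0.20 and Gclc at -0.38 ± 0.18 (log2 fold change, SE), while Mgst1 and Mgst2 turned to -0.14 and -0.21. The median of the 10 was -0.13 in that fit. What share of each difference goes with length was not tested.

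The rest of the pathway was followed in 111 further genes listed by role, of which 101 passed the filter. In edgeR 0 of the 101 passed an adjusted p of 0.05 in either direction, and 0 did so in limma-voom. The count was also 0 in edgeR without phlebotomy 2, a fit that called 1.75% of all genes higher and 2.99% lower. In DESeq2 0 passed as well, but it gave no adjusted p for some of the 101, such as Ggt1, Gstm7 and Nox4. At an unadjusted p under 0.05, 7 were higher and 14 lower, or 21 in all, where 7.01% of all genes tested were higher and 9.42% lower. The median log2 fold change of the 101 was 0.051. For 9 of the 101 all phlebotomy libraries lay above all controls, and for 10 they lay below. Over all genes tested, 10.1% lay above and 11.2% below, so a lack of overlap was no more frequent among these genes.

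**Figure D5:**
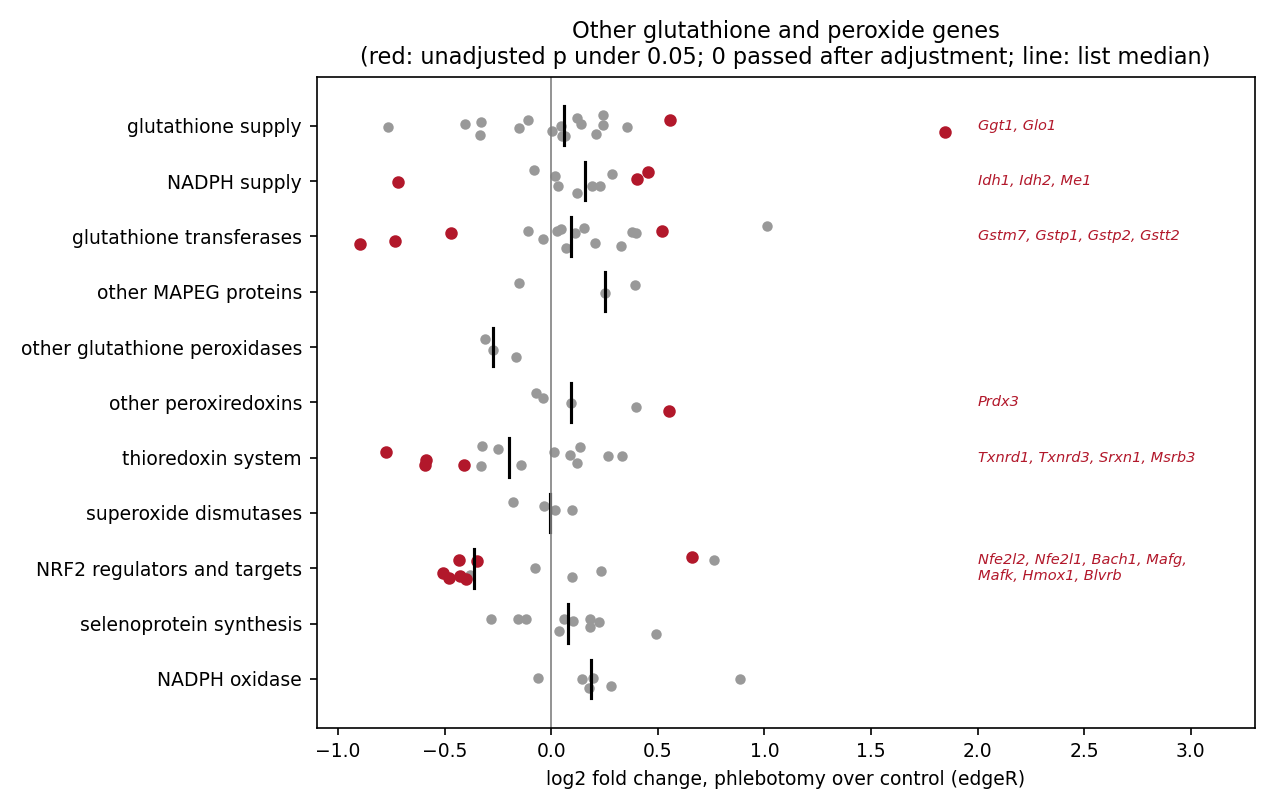
edgeR log2 fold change of phlebotomy over control (x axis) for the 101 further pathway genes tested, 1 row per role, red marking those whose unadjusted p was under 0.05, named at the right, and black lines the list medians. The NRF2 and thioredoxin rows hold 10 of the 14 genes that were lower at that level.

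The list of NRF2 regulators and targets stood at a median log2 fold change of -0.36, or -0.23 with the length and GC trend removed. In it 8 of 12 genes were negative, 6 of them at an unadjusted p under 0.05. Of those 6, Hmox1 was the only target and the rest were regulators, among them the repressor Bach1. The targets in this list did not share a direction: Nqo1, Aox1 and Blvrb had log2 fold changes of 0.098, 0.76 and 0.66. Osgin1 and Hmox1 had -0.077 and -0.51, so the median does not describe the targets. Nfe2l2 itself was at 248 ± 12.4 CPM after phlebotomy and 315 ± 16.3 CPM in controls (SD, n = 3 each; log2 fold change -0.35 ± 0.16 SE, edgeR adjusted p 0.30), with all phlebotomy libraries below all controls. Bach1, a repressor of the same elements that heme inactivates, was at 57.2 ± 6.81 CPM after phlebotomy and 79.6 ± 6.59 CPM in controls (log2 fold change -0.48, edgeR adjusted p 0.211). Hmox1, the heme-degrading oxygenase, was at 824 ± 135 CPM after phlebotomy and 1171 ± 201 CPM in controls (log2 fold change -0.51, edgeR adjusted p 0.247). Nfe2l1, Mafg and Mafk had log2 fold changes of -0.40, -0.43 and -0.43. Blvrb, a biliverdin reductase abundant in red cells, was at 148 ± 20.8 CPM after phlebotomy and 93.2 ± 32.3 CPM in controls (log2 fold change 0.66, edgeR adjusted p 0.212).

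The thioredoxin system had a median of -0.20, with 4 of 14 genes lower at an unadjusted p under 0.05. Txnrd3 (log2 fold change -0.59), a thioredoxin reductase, did not overlap between groups, and Srxn1 (-0.77), which restores overoxidised peroxiredoxins, and Txnrd1 (-0.59) did. Msrb3, a methionine sulfoxide reductase, had -0.41. Srxn1 had 225, 424 and 367 CPM in phlebotomy 1, 2 and 4, against 848, 493 and 397 CPM in control 1, 2 and 4. Its high value lay in control 1, as for Txnrd1 and Gclc. The edgeR adjusted p for these 3 thioredoxin genes ran from 0.205 to 0.237.

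Among the other peroxide enzymes, the mitochondrial Prdx3 was at 76.2 ± 13.7 CPM after phlebotomy and 51.8 ± 9.94 CPM in controls (SD, n = 3 each; log2 fold change 0.55 ± 0.19 SE, edgeR adjusted p 0.212), without overlap. Prdx5 and Prdx1 had log2 fold changes of 0.40 and 0.095. All 3 other glutathione peroxidases tested were negative: the secreted Gpx3 had a log2 fold change of -0.16, and Gpx7 and Gpx8 of the endoplasmic reticulum had -0.31 and -0.27. The superoxide dismutase list had a median of -0.0074, with Sod1 at 0.098, Sod3 at -0.18 and the copper chaperone Ccs at -0.035. None of these genes had an unadjusted p under 0.05 other than Prdx3.

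In glutathione supply the list median was 0.059, with 12 of 18 genes positive. Glo1, which clears methylglyoxal with glutathione, was at 34.9 ± 5.42 CPM after phlebotomy and 23.7 ± 1.08 CPM in controls (SD, n = 3 each; log2 fold change 0.56 ± 0.18 SE, edgeR adjusted p 0.201), without overlap. Ggt1, which degrades glutathione outside cells, had 5.57, 0.912 and 2.40 CPM in phlebotomy 1, 2 and 4, against 0.197, 0.383 and 1.81 CPM in control 1, 2 and 4, and Oplah had a log2 fold change of -0.76. The NADPH supply list had a median of 0.16. In it Idh1 and Idh2 (0.45 and 0.40) did not overlap between groups, and malic enzyme Me1 (-0.72, edgeR adjusted p 0.201) did.

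Glutathione transferases other than the Mgst genes, 16 of 21 tested, had a median of 0.092. Gstp1 (log2 fold change -0.47), Gstp2 (-0.73) and Gstm7 (-0.90) were the 3 with the smallest p, Gstt2 was at 0.52, and Gstp1 and Gstp2 are near-identical copies whose reads may be shared. The relatives of the Mgst genes within the MAPEG family of membrane proteins had log2 fold changes of 0.25 for Alox5ap, the 5-lipoxygenase activating protein, 0.39 for Ltc4s, leukotriene C4 synthase, and -0.15 for Ptges, a prostaglandin E synthase. Ltc4s was near the limit of detection, at 0.673 ± 0.168 CPM after phlebotomy and 0.482 ± 0.261 CPM in controls (SD, n = 3 each). For selenoprotein synthesis, on which Gpx1 and Gpx4 depend, the median was 0.080, with Pstk at 0.49, Sepsecs at -0.28 and Sephs2 at 0.23. For the phagocyte NADPH oxidase and its relatives the median was 0.18, with Nox4 at 0.89, Ncf1 at 0.28 and Ncf4 at 0.18. Cybb, at -0.063, was the 1 negative gene of the 6 tested. Nox4 was low and overlapped between groups, at 1.79 ± 1.02 CPM after phlebotomy and 0.986 ± 0.210 CPM in controls (SD, n = 3 each).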

How the data were processed

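The authors deposited raw counts per gene, a filtered copy of them (28533 rows, 0 counts differing) and a table of signal values that, per the file's name, are CPM scaled with TMM. Per the labels' protocols, the library kit was Nextera XT, which keeps no strand, with paired reads of 126 bp. Tools named in the submitters' processing notes, with no role, are edgeR, limma, DESeq2, STAR 2.5.2a and STAR 2.7.3a, with the builds mm10 and GRCm38.p3; how reads were counted is not stated there.

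Genes were filtered with filterByExpr (minimum count 10), leaving 18838. Scaling was by TMM and the test was that of edgeR 4.0.16 in R 4.3.3 (quasi-likelihood, robust, no covariates, Benjamini-Hochberg over all genes). The 19 rows that name no mouse gene, with 0.00278% to 0.0284% of counts, stayed out. Levels are TMM-scaled CPM. SE were approximated from the F statistic. Coordinates and lengths come from GENCODE M21 (GRCm38), which held 99.7% of the gene IDs. The test was checked on simulated data with known changes. Libraries were not paired by column number in the test. Same-numbered libraries correlated at -0.11, -0.11 and -0.062 in their deviations from group means, which cannot show whether the numbers mark pairs.

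The 10 genes, the lists of further genes and of cell type markers, and the alternatives were chosen with earlier results of these data known. The rule for further genes named every one past the threshold and up to 3 of each list by smallest p; other genes at an unadjusted p under 0.05 were named after their values were seen. Alternatives were other scaling, other filters, DESeq2 1.42.0, limma 3.58.1 (voom, and trend on log2 of scaled CPM, after adding 0.5 or 1), blocking by replicate, removal of a length and GC trend with mgcv 1.9.3, and leaving out each library. Adding pseudogene counts was chosen after seeing the data. 0 library pairs of a group differed by as little as sampling noise (chi-square per degree of freedom 25.4 to 61.8). Figures were drawn with matplotlib 3.10.9. Protein sequences were not used here.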

Additional observations from a re-analysis of the deposited data

Results flagged for a closer look

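Among rows for vector, reporter and transgene sequences, which enter no comparison, 5 held more than 10 counts in phlebotomy 2 and, relative to gene counts, over 2 times the highest control library. Neo had 2288 counts there, against at most 12 in a control library. For tg_EGFP the counts were 920 in phlebotomy 2 and at most 6 in a control library, and for tg_DsRed they were 403 in phlebotomy 2 and 0 in controls. Counts of tg_Venus and tg_mLamp3 were 75 and 24 in phlebotomy 2 and 0 in controls. Of the rows under those limits, tg_beta-lac held 12 counts in phlebotomy 2 and at most 5 in a control library. The row tg_GNAS-R201C-EE held 423, 560 and 438 counts in phlebotomy 1, 2 and 4 and 372, 619 and 545 in control 1, 2 and 4. Each of the 5 was flagged as a signal in data outside the main measurement, in a library whose label gives the genotype WT. Without that library the log2 fold changes of Mgst3, Prdx2, Gpx1 and Gclc were 1.05, 0.56, 0.45 and -0.55.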

How the results depend on the processing

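Over 18 alternatives the signs of 7 of the 10 genes (Mgst3, Gpx1, Gpx4, Gclc, Gclm, Prdx2 and Cat) did not change, and 12 of 180 values changed sign, 4 of Mgst1, 7 of Mgst2 and 1 of Gsr. Gsr turned to 0.028 with library size alone as scaling, which moved the median of all genes by 0.14 on the log2 scale. The log2 fold change of Mgst3 ran from 0.78 to 1.13. The median of the 10 was -0.13 with the length and GC trend removed, and ran from -0.13 to 0.25 with a library left out. The number of genes called by edgeR, 3 with all libraries, was 577 without any low-count filter, 20 with the authors' own filter, 284 in DESeq2 and 0 in limma-voom (2987 at an unadjusted p under 0.05). It ran from 0 without phlebotomy 1 (1529 at an unadjusted p under 0.05) to 963 without phlebotomy 2, with 14 without control 2 and 7 without control 4. Of the 101 further genes, 3 were called without a low-count filter (Ggt1 higher, Me1 and Srxn1 lower) and 0 with any library left out. Their median was 0.20 with library size alone, -0.037 with the authors' filter, -0.030 and -0.027 in limma-trend with pseudocounts of 0.5 and 1, and -0.020 to 0.073 with a library left out. The causes were not tested. With the replicate block 3 genes were called over all genes, 0 of the further genes were, and the median of the 10 was 0.11. Counting error is small beside the spread between libraries at 157 or more counts, so the number of libraries limits the precision.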

Other observations

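Markers of other cell types were measured in the same libraries. Megakaryocyte and platelet markers summed to 682 to 1055 CPM after phlebotomy and 584 to 1290 CPM in controls, with 5 of 6 negative in log2 fold change, and B-lineage markers to 176 to 255 CPM after phlebotomy and 232 to 295 CPM in controls, with 6 of 7 negative. Adipocyte markers summed to 316 to 529 CPM after phlebotomy and 364 to 574 CPM in controls, and endothelial markers to 412 to 493 CPM after phlebotomy and 415 to 503 CPM in controls. Skeletal muscle markers summed to 9.12 to 11.9 CPM after phlebotomy and 5.58 to 9.13 CPM in controls, with 3 of 3 tested positive.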
